A study of Mus musculus with 4 samples.

Results

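The genes described here are a set of mitosis and DNA replication genes, chosen by symbol from textbook roles in the cell cycle. Their values in these libraries did not set the choice, but earlier results of these data were known. Of 43 listed genes, 42 had a row in a table of 14226 rows, 22 with a role in mitosis and 20 with a role in DNA replication. Gins2 was not analysed here. RNA was sequenced from whole splenocytes, the mixed cell suspension of the spleen, in the C57BL/6N strain. The design has 2 libraries of wild-type mice (genotype wt) and 2 libraries from mice of genotype vcS5 +/T, both marked as line1 in the labels. The series title links the model to an activating mutation of STAT5 and to peripheral T cell lymphoma. The labels call the libraries of a group biological replicates. The promoter that drives the transgene and the ages of the mice are not given in the sources used here, and 1 line does not represent others. Values are FPKM, read counts scaled to transcript length and library size, so levels can be compared between genes.

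Cells that divide copy their DNA in S phase and part the copies in mitosis, and most splenocytes of an unchallenged mouse are resting. E2F transcription factors switch on replication genes at S phase entry. Mitosis genes follow later, when the MuvB complex with B-MYB and FOXM1 acts through CHR elements in their promoters. Many of these promoters also hold CCAAT boxes. In a spleen, dividing cells can be activated lymphocytes, germinal centre B cells, plasmablasts, erythroid precursors or myeloid precursors. In bulk RNA, fewer cells of a type and less RNA per cell cannot be told apart.

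Promoters bear on the set because its members are known to be switched on in 2 waves. RefSeq promoter windows on GRCm38.p6, 250 bases before to 50 bases after a start, were given for 34 of 42 members. Exact matches were searched on both strands and could overlap. The CHR letters TTTGAA, or their variant TTTAAA, occurred in 14 of 17 windows of mitosis members (82.4%) and 7 of 21 windows of replication members (33.3%). All 32851 windows held them in 27.6%, and windows of other genes in the table in 19.2%. The E2F letters TTCCCGC, with the variants written as TTCGCGC and also as TTGGCGC, occurred in 17.6% of mitosis windows and 57.1% of replication windows, against 8.07% of all windows and 14.4% of other genes in the table. CCAAT occurred in 82.4% of mitosis and 61.9% of replication windows, against 37.4% of all windows and 38% of other genes in the table. A match is a description of letters and not a bound site.

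The 250 bases before the start are shown for 6 genes, 5' to 3' on the minus strand, with CHR, E2F and CCAAT matches in capitals. Cdc20 and Aurka had the lowest log2 changes of the mitosis members, Mcm6 and Ccne1 had the lowest unadjusted p of all members, Tk1 had the lowest log2 change of the replication members, and Top2a varied most between the wild-type libraries.
Cdc20 (chr4:118437344-118437593): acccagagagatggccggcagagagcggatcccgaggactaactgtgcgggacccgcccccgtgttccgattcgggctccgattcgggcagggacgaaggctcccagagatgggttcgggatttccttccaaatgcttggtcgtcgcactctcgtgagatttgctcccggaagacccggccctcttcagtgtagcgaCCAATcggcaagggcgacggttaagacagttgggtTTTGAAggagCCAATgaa
Aurka (chr2:172370571-172370820): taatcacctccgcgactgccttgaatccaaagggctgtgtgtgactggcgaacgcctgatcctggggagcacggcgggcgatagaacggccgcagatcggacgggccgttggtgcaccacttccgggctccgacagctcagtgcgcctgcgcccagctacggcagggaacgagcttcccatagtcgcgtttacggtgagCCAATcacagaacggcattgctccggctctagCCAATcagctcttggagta
Top2a (chr11:99024190-99024439): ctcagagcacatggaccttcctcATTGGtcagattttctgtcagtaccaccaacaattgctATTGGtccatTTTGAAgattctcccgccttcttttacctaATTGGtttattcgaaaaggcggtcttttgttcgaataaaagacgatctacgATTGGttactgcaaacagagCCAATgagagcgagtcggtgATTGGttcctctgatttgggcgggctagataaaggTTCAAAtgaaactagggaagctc
Mcm6 (chr1:128359706-128359955): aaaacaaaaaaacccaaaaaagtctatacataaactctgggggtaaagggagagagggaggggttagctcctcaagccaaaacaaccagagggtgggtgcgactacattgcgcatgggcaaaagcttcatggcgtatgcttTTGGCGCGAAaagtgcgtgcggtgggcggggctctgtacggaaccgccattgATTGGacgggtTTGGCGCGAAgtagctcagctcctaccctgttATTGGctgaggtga
Ccne1 (chr7:38107491-38107740): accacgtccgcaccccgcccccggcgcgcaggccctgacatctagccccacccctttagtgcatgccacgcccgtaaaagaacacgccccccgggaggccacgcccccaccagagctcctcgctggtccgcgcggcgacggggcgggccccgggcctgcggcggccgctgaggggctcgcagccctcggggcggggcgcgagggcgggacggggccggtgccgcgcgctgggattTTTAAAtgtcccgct
Tk1 (chr11:117826015-117826264): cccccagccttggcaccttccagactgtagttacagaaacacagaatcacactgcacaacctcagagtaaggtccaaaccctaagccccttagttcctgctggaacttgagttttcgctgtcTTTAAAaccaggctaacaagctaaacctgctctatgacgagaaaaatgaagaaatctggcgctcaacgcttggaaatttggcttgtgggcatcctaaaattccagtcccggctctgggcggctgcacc
The mitosis genes Cdc20 and Top2a hold both CHR and CCAAT letters, 1 and 2 matches for Cdc20 and 2 and 6 matches for Top2a. Aurka shows 2 CCAAT boxes, and its CHR matches lie after the start, outside the printed bases. Mcm6 shows 4 E2F matches, in overlapping pairs, with 2 CCAAT boxes. Ccne1 and Tk1 each show 1 CHR match and no E2F match of these letters.

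No member passed the test between vcS5 and wild type. The test was limma with a variance trend on log2(FPKM + 1), two-sided, with Benjamini-Hochberg adjustment over all rows and a threshold of 0.05. It called 0 of 42 members, while 8.72% of all rows were called, 4.59% as higher and 4.13% as lower in vcS5. In the authors' deposited table the q-value was under 0.05 for 0 members, against 11.5% of all rows. By limma, 5 members had an unadjusted p under 0.05 (11.9%, against 25.3% of all rows), Mcm6 and Ccne1 toward higher and Cdc20, Aurka and Tk1 toward lower values in vcS5. That number was 0 without wild-type replicate 2 and 3 without each of the other libraries. The median log2 change was 0.01 over the members, -0.05 over the mitosis members and 0.16 over the replication members, and the median over all rows was 0.00125. With 1 library left out, the mitosis median was -0.14 without wild-type replicate 2, and it was 0.06 when either wild-type replicate 1 or vcS5 replicate 1 was omitted. The replication median then ran from 0.04 without vcS5 replicate 2 to 0.24 without vcS5 replicate 1. The groups did not overlap for 15 members, 9 higher and 6 lower in vcS5, against 54.4% of all rows. With 2 libraries a group, p-values measure the spread between these libraries only.

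The width of the intervals says which changes these libraries could have missed. For 39 of 42 members the whole 95% interval of the log2 change lay inside 2-fold in either direction (92.9%, against 67.1% of all rows). The exceptions were Mcm7, Cenpf and Ccne1. For 40 members the interval ended below a 2-fold rise, and for 41 above a 2-fold fall. Inside 1.5-fold lay 15 members (35.7%, against 27.2% of all rows), so a change of that size was not excluded for the other members. That count was 10 with a pseudocount of 0.1. It was 2 when wild-type replicate 1 was omitted, 1 when replicate 2 of wild type was omitted, and 3 when either vcS5 library was omitted. The median standard error was 0.18. Folds on the log2(FPKM + 1) scale are smaller than folds of FPKM for low genes.

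**Figure D1:**
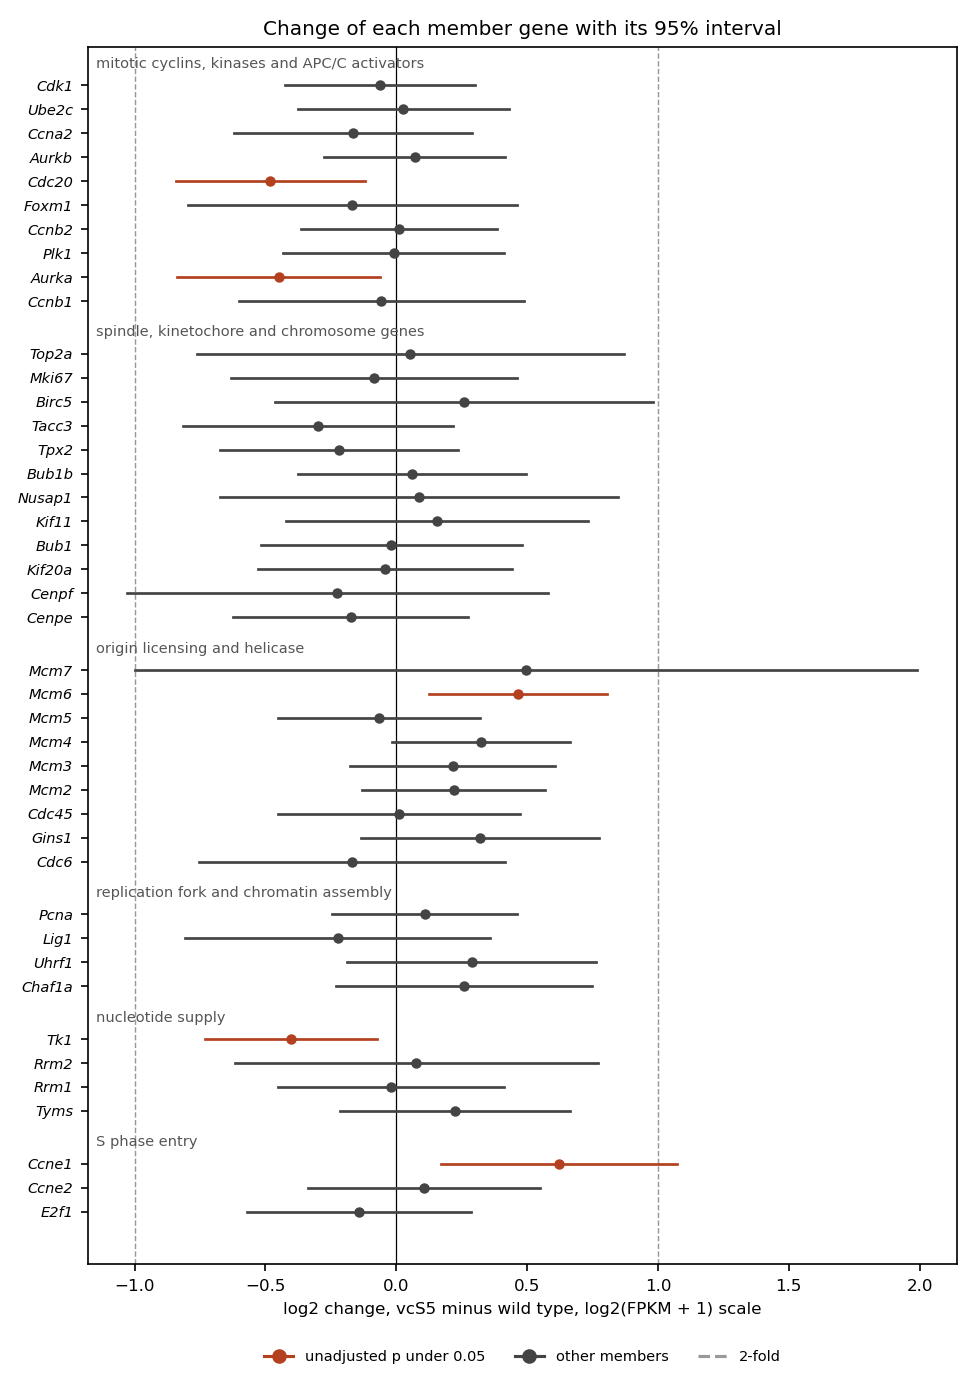
Log2 change of vcS5 over wild type on the log2(FPKM + 1) scale (x axis) for each of the 42 members (y axis, grouped by role), with the point as the limma estimate and the bar as its 95% interval. The intervals of Mcm7, Cenpf and Ccne1 cross the 2-fold lines, and the other 39 lie inside them.

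The cyclins and kinases that drive entry into mitosis were expressed at low to moderate levels. Cdk1, the kinase that starts mitosis, had 23.6 and 20.7 FPKM in the wild-type libraries and 22 and 20.4 FPKM in the vcS5 libraries. Its groups overlapped, and its log2 change was -0.06 with a 95% interval from -0.42 to 0.30. The cyclins that activate Cdk1, Ccna2, Ccnb1 and Ccnb2, had log2 changes of -0.16, -0.06 and 0.01. Ccnb2 had 11.6 and 10.3 FPKM in the wild-type libraries and 10.5 and 11.5 FPKM in the vcS5 libraries. Each cyclin overlapped between the groups. Plk1, a kinase of centrosome maturation and mitotic entry, had 8.41 and 6.87 FPKM in the wild-type libraries and 7.18 and 7.94 FPKM in the vcS5 libraries, with a log2 change of -0.01. Foxm1, the transcription factor of the mitotic wave, had a log2 change of -0.17. Its row carries a second gene identifier, and a separate row for Nrip2 shares its locus.

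Cdc20 and Aurka were the mitotic regulators with the clearest lower values. Cdc20, which activates the anaphase-promoting complex at the metaphase to anaphase transition, had 14.1 and 15.5 FPKM in the wild-type libraries and 9.85 and 10.8 FPKM in the vcS5 libraries. Both vcS5 libraries lay below both wild-type libraries. The log2 change was -0.48 (SE 0.142, 95% interval -0.84 to -0.12), with an unadjusted p of 0.0184 and an adjusted p of 0.112 by limma. A separate row for Elovl1 shares the Cdc20 locus. Aurka, a kinase of spindle poles, had 6.75 and 7.4 FPKM in the wild-type libraries and 5.10 and 4.72 FPKM in the vcS5 libraries. Its groups did not overlap either, with a log2 change of -0.45 (SE 0.153) and an adjusted p of 0.151 by limma. The authors' deposited q-values were 0.584 for Cdc20 and 0.257 for Aurka. Aurkb, the related kinase of the chromosomal passenger complex, had a log2 change of 0.07. Ube2c, the ubiquitin-conjugating enzyme that works with the same complex as Cdc20, had 22.4 and 18.0 FPKM in the wild-type libraries and 19.9 and 21.1 FPKM in the vcS5 libraries, with overlap and a log2 change of 0.03. Birc5, the survivin subunit that works with Aurkb, had 22.1 and 12.6 FPKM in the wild-type libraries and 18.2 and 22.3 FPKM in the vcS5 libraries, and the upper bound of its interval was 0.98.

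Among spindle, kinetochore and chromosome genes, the libraries of at least 1 group differed by more than the groups for all 12 members. Top2a, the topoisomerase that untangles sister chromatids, had 49.9 and 25.7 FPKM in the wild-type libraries and 34.9 and 39.8 FPKM in the vcS5 libraries. The wild-type libraries differed 1.94-fold and enclosed both vcS5 libraries. Its log2 change was 0.05 with an interval from -0.76 to 0.87. Mki67, the proliferation marker that coats mitotic chromosomes, had 26.2 and 25.4 FPKM in the wild-type libraries and 19.9 and 29.7 FPKM in the vcS5 libraries. Here the vcS5 libraries enclosed the wild-type ones, and the log2 change was -0.08 with an interval from -0.63 to 0.46. Nusap1, which bundles spindle microtubules, had 11.9 and 6.55 FPKM in the wild-type libraries and 8.25 and 10.9 FPKM in the vcS5 libraries. The wild-type libraries again enclosed both vcS5 libraries. Cenpf, a kinetochore protein, had 4.29 and 4.96 FPKM in the wild-type libraries and 5.49 and 2.56 FPKM in the vcS5 libraries, with vcS5 replicate 2 below the other 3 libraries. Its log2 change was -0.22, and its interval reached -1.03. Bub1, a kinase of the spindle checkpoint, had 5.20 and 4.25 FPKM in the wild-type libraries and 5.28 and 4.05 FPKM in the vcS5 libraries, with overlap.

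The remaining members of the spindle and kinetochore role had log2 changes from 0.16 for Kif11, a motor that separates spindle poles, to -0.30 for Tacc3, which stabilises spindle fibres. Bub1b, a checkpoint protein, had 0.06, and the cytokinesis motor Kif20a had -0.04. Tpx2, the activator of Aurka at the spindle, had -0.22, and the kinetochore motor Cenpe -0.17. Tacc3 and Cenpe were lower in both vcS5 libraries than in both wild-type libraries, by small margins. For Tacc3 the nearest values were 16.8 FPKM in wild-type replicate 2 and 16.6 FPKM in vcS5 replicate 2. For Cenpe they were 3.69 FPKM in wild-type replicate 1 and 3.60 FPKM in vcS5 replicate 2. Among all 22 mitosis members the groups did not overlap for 4, all lower in vcS5, against 27.5% of all rows. No mitosis member was higher in both vcS5 libraries, against 26.9% of all rows.

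**Figure D2:**
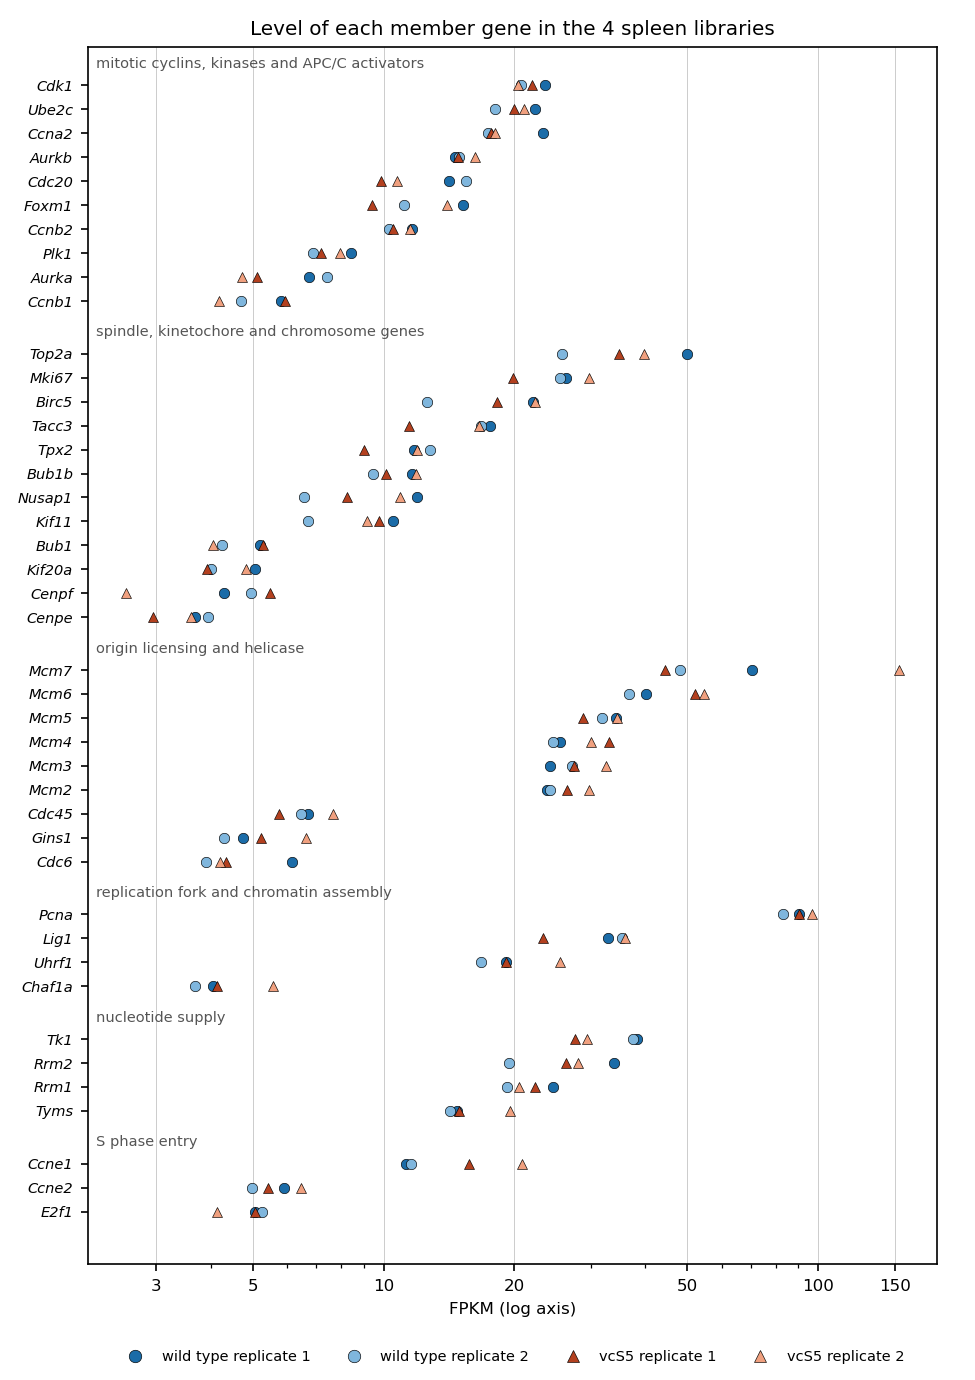
FPKM on a log axis of each member in each library, with wild-type and vcS5 libraries in separate colours and members grouped by role. By mean, Pcna and Mcm7 are highest and Cenpe is lowest, while the lowest single point is Cenpf in vcS5 replicate 2. Most members overlap between the groups, while the vcS5 points of Mcm6 and Ccne1 lie above and those of Cdc20, Aurka and Tk1 below wild type.

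Genes of origin licensing and the replicative helicase had mostly positive log2 changes. Mcm6, a subunit of the MCM2-7 ring that unwinds DNA, had 40.2 and 36.7 FPKM in the wild-type libraries and 52.2 and 54.6 FPKM in the vcS5 libraries. Both vcS5 libraries lay above both wild-type libraries. The ratio of means was 1.39, and the log2 change was 0.46 (SE 0.134, 95% interval 0.12 to 0.80), with an unadjusted p of 0.0167 and an adjusted p of 0.107 by limma. In the authors' deposited table Mcm6 had a q-value of 0.0633, the lowest of the members. The ring subunits Mcm4, Mcm2 and Mcm3 also did not overlap, with log2 changes of 0.32, 0.22 and 0.22. Mcm4 had 25.4 and 24.5 FPKM in the wild-type libraries and 33.0 and 30.0 FPKM in the vcS5 libraries. Mcm5 was the ring subunit with a negative value, -0.07, and it overlapped. Over the 6 ring subunits the median log2 change was 0.27, and 0 passed the test.

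Mcm7, the remaining ring subunit, had the least certain change of the set. It had 70.5 and 48.2 FPKM in the wild-type libraries and 44.4 and 153 FPKM in the vcS5 libraries, so that vcS5 replicate 2 stood above and replicate 1 below both wild-type libraries. The log2 change was 0.50, with an interval from -1.0 to 1.99 and an adjusted p of 0.676 by limma. Without vcS5 replicate 2 it was -0.39, and without vcS5 replicate 1 it was 1.38. The Mcm7 locus is shared with rows for Cops6, Ap4m1 and Taf6, and these libraries carry no strand information. Those rows had 43.3, 49.3, 50.4 and 52.7 FPKM for Cops6, 16.2, 20.6, 22.3 and 18.4 FPKM for Ap4m1 and 24.4, 29.2, 27.1 and 25.4 FPKM for Taf6, in wild-type replicates 1 and 2 and then vcS5 replicates 1 and 2. None of them showed the high value of vcS5 replicate 2. The annotation also places 3 microRNA genes, Mir25, Mir93 and Mir106b, inside the Mcm7 locus (mm10 chromosome 5, minus strand).

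The other licensing members were Cdc6, which loads the MCM ring, and Cdc45 and Gins1, which turn it into an active helicase. Cdc45 had 6.71 and 6.46 FPKM in the wild-type libraries and 5.74 and 7.64 FPKM in the vcS5 libraries, with overlap and a log2 change of 0.01. Cdc6 overlapped as well, at -0.17. Gins1 was higher in both vcS5 libraries, with 4.75 and 4.29 FPKM in the wild-type libraries and 5.23 and 6.61 FPKM in the vcS5 libraries and a log2 change of 0.32.

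At the replication fork, Pcna was the most abundant member. Pcna, the sliding clamp of the DNA polymerases, had 90.3 and 83.0 FPKM in the wild-type libraries and 90.3 and 96.6 FPKM in the vcS5 libraries. Its groups were separated by less than the printed digits, and its log2 change was 0.11 with an interval from -0.24 to 0.46. Lig1, the ligase that joins Okazaki fragments, had 32.8 and 35.4 FPKM in the wild-type libraries and 23.3 and 36.0 FPKM in the vcS5 libraries. The vcS5 libraries enclosed the wild-type ones, and the log2 change was -0.22. Chaf1a, a chaperone that places histones on new DNA, and Uhrf1, which brings the maintenance methyltransferase to it, had log2 changes of 0.26 and 0.29. The groups of Chaf1a did not overlap.

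Genes of nucleotide supply split in direction. Tk1, the thymidine kinase of S phase cells, had 38.3 and 37.5 FPKM in the wild-type libraries and 27.6 and 29.4 FPKM in the vcS5 libraries. Both vcS5 libraries lay below both wild-type libraries. The log2 change was -0.40 (SE 0.129, 95% interval -0.73 to -0.07), with an unadjusted p of 0.0254 and an adjusted p of 0.135 by limma. The authors' deposited q-value for Tk1 was 0.715. Its locus is shared with a row for Afmid, which had 142 and 135 FPKM in the wild-type libraries and 109 and 93.8 FPKM in the vcS5 libraries. Rrm2, the small subunit of ribonucleotide reductase, had 33.9 and 19.4 FPKM in the wild-type libraries and 26.3 and 28.0 FPKM in the vcS5 libraries, with overlap and a log2 change of 0.08. Rrm1, the large subunit, had -0.02, and Tyms, which makes thymidylate, had 0.22 without overlap.

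Among S phase entry genes, Ccne1 had the largest log2 change of the set. Ccne1, the cyclin E1 that activates Cdk2, had 11.3 and 11.5 FPKM in the wild-type libraries and 15.7 and 20.8 FPKM in the vcS5 libraries. Both vcS5 libraries lay above both wild-type libraries. The ratio of means was 1.6. The log2 change was 0.62 (SE 0.177, 95% interval 0.17 to 1.07), with an unadjusted p of 0.016 and an adjusted p of 0.104 by limma. The authors' deposited q-value for Ccne1 was 0.122. Ccne2, the related cyclin E2, had 5.91 and 4.99 FPKM in the wild-type libraries and 5.41 and 6.47 FPKM in the vcS5 libraries, with overlap and a log2 change of 0.11. E2f1, a transcription factor of the replication wave, had -0.14, and its groups were separated by less than the printed digits. Of the 20 replication members, 9 were higher and 2 lower in both vcS5 libraries, against 26.9% and 27.5% of all rows. Some of the 9 had small margins, with nearest wild-type and vcS5 values of 14.7 and 14.9 FPKM for Tyms. For Mcm3 these were 27.1 and 27.5 FPKM, and for Chaf1a 4.04 and 4.14 FPKM. The margins of Mcm4, Mcm6 and Ccne1 were wider. The difference between the replication and mitosis members was not tested.

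**Figure D3:**
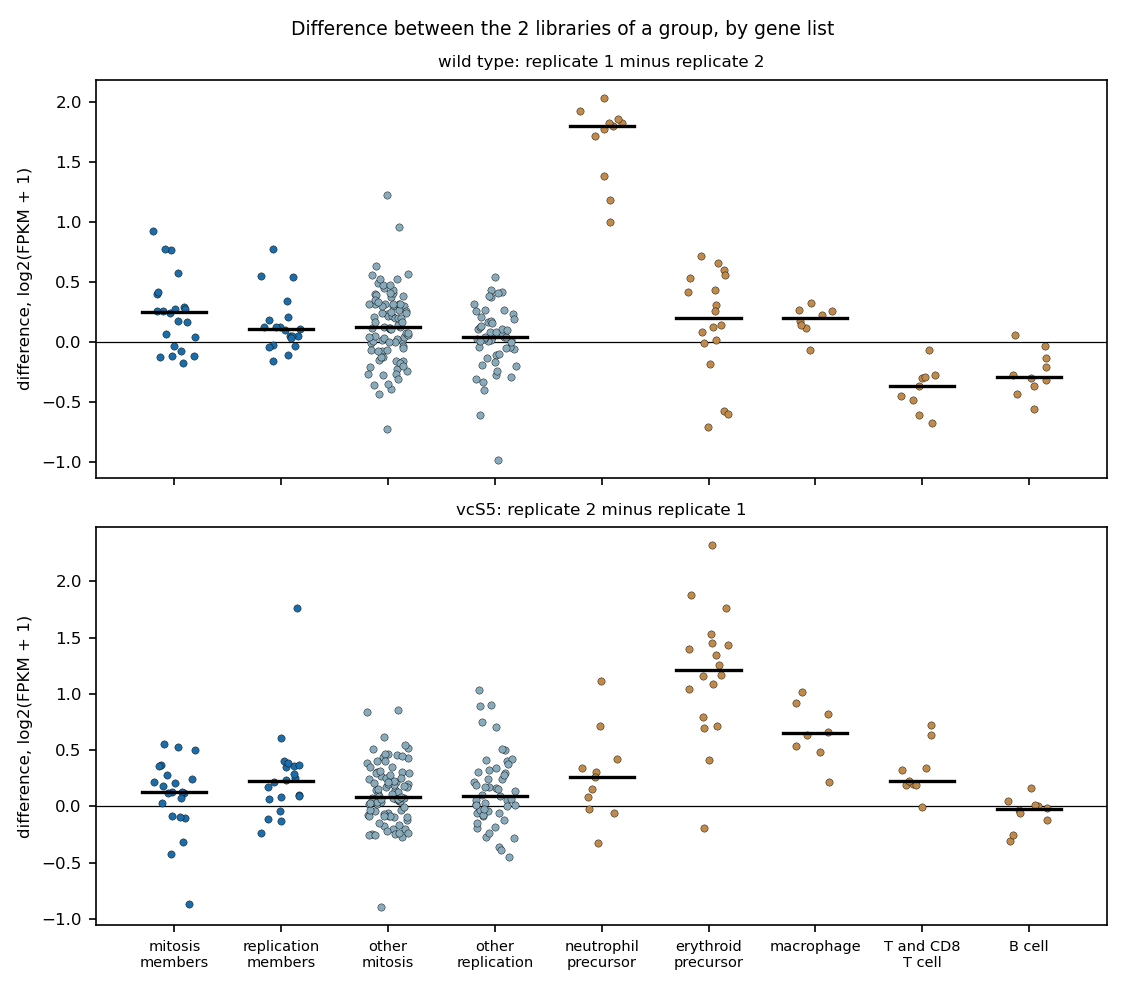
Difference between the libraries of a group on the log2(FPKM + 1) scale (y axis), wild-type replicate 1 minus 2 and vcS5 replicate 2 minus 1, for the members and for other gene lists (x axis), with 1 point per row and the list median as a bar. Neutrophil precursor markers lie highest in wild type and erythroid precursor markers highest in vcS5, and members lie mostly above 0 in both.

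The members shifted together between replicates. In wild type, 31 of 42 members were higher in replicate 1 than in replicate 2 (73.8%, against 43.6% of all rows), with median differences of 0.25 for mitosis and 0.10 for replication members. Over all rows that median was -0.05. In vcS5, 32 of 42 members were higher in replicate 2 than in replicate 1 (76.2%, against 55.4% of all rows), with medians of 0.13 for mitosis and 0.23 for replication members and 0.04 for all rows. Summed over the members, FPKM came to 841 and 718 in the wild-type libraries and to 743 and 942 in the vcS5 libraries. The sums of the groups overlap, and Mcm7 alone accounts for 153 of the 942. For 22 of 42 members the change between the groups was smaller than the difference between the wild-type libraries, against 6142 of 14226 rows. The median coefficient of variation was 8.43% in wild type and 12.6% in vcS5, against 11.7% and 11.8% over all rows.

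Some markers of cell types that divide or that fill the spleen differed between the same libraries, and others did not. Neutrophil precursor markers were higher in wild-type replicate 1 than in replicate 2 in 11 of 11 rows, with a median difference of 1.81. Their summed FPKM was 6111, 1812, 981 and 948 in wild-type replicates 1 and 2 and vcS5 replicates 1 and 2. In wild-type replicate 1, S100a8 held 2932 FPKM and S100a9 held 2026 FPKM of that sum. The sum does not separate dividing precursors from mature neutrophils. Between the groups the median log2 change of these markers was -1.73, with 11 of 11 negative and 10 of 11 lower without overlap. In the authors' deposited table the q-value was under 0.05 for 10. Of these 11, Fcnb fell in vcS5 and the other 10 did not pass. Fcnb lost its call with quantile scaling (adjusted p = 0.0528 by limma), without the variance trend (0.0503) and without wild-type replicate 1 (0.101). Erythroid precursor markers were higher in vcS5 replicate 2 than in replicate 1 in 17 of 18 rows, with a median difference of 1.21 and sums of 358, 352, 165 and 393. In wild type, 13 of these 18 rows were higher in replicate 1 than in replicate 2. None of the 18 passed the test. Macrophage markers were higher in vcS5 replicate 2 in 8 of 8 rows, with a median difference of 0.65, and none passed. In wild type, 7 of these 8 rows were higher in replicate 1 than in replicate 2. Between the groups the median log2 change of the macrophage markers was -0.44, with 8 of 8 negative and 3 of 8 lower without overlap. Plasma cell markers were higher in vcS5 replicate 2 in 0 of 7 rows, with sums of 719 FPKM in replicate 1 and 519 FPKM in replicate 2, and germinal centre markers in 3 of 7 rows. No marker of these lists was at 0 in any library. Their part in the shifts of the members was not tested.

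T and B cell markers separated the groups, without overlap in 9 of 9 and 10 of 10 rows. Of 9 T and CD8 T cell markers 5 rose, with sums of 812 and 1110 FPKM in the wild-type libraries and 2876 and 3705 FPKM in the vcS5 libraries. All 10 rows of 9 B cell markers fell, with sums of 3293 and 4001 FPKM in the wild-type libraries and 1382 and 1338 FPKM in the vcS5 libraries. Germinal centre B cell markers summed to 70.4 and 73.3 FPKM in the wild-type libraries and 53.7 and 52.5 FPKM in the vcS5 libraries. Of 7 with a row, Bcl6 passed the test as lower and none passed as higher, and the median log2 change was -0.40. The log2 change was negative for 6, 5 of them without overlap. Fas went the other way, also without overlap, at 0.63, and did not pass. It had 9.65 and 12.5 FPKM in the wild-type libraries and 17.32 and 17.95 FPKM in the vcS5 libraries. Mzb1 and Irf4 fell among 7 plasma cell markers, with a median of -0.52. Bcl6, Mzb1 and Irf4 lost their calls with each library left out in turn, as did Cd3e, Blnk and Pax5 of the T and B cell markers, with adjusted p-values by limma from 0.0574 to 0.125. Whether dividing cells of these types contributed to the member values was not tested. Stat5a itself had 13.9 and 17.0 FPKM in the wild-type libraries and 105 and 123 FPKM in the vcS5 libraries, which matches the genotype labels, and the row does not separate transgene from endogenous RNA.

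Other genes of both processes, taken from 9 textbook lists of 168 genes, were read beside the members. Of these, 167 had a row, 170 rows in all, and Cdt1 was not analysed here. The test called 6 rows (3.53%), 5 higher and 1 lower, against 8.72% of all rows. The median log2 change was 0.07. Between replicates, 70% of these rows were higher in wild-type replicate 1 than in replicate 2. In vcS5, 67.6% were higher in replicate 2 than in replicate 1. Unadjusted p-values under 0.05 were reached by 17 rows, and 146 intervals lay inside 2-fold.

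Racgap1 had the largest change among them. Racgap1, the GTPase-activating subunit of the centralspindlin complex of cytokinesis, had 17.7 and 19.8 FPKM in the wild-type libraries and 67.5 and 67.0 FPKM in the vcS5 libraries. It rose 3.59-fold, with a log2 change of 1.79 (SE 0.134, 95% interval 1.45 to 2.13) and an adjusted p of 0.0048 by limma. Kif23, the motor subunit of the same complex, had 10.6 and 8.90 FPKM in the wild-type libraries and 11.0 and 11.4 FPKM in the vcS5 libraries, a log2 change of 0.18. Ect2, the exchange factor that the complex recruits, had 5.16 and 4.99 FPKM in the wild-type libraries and 4.01 and 5.92 FPKM in the vcS5 libraries, a log2 change of -0.04. Neither partner passed the test, and both were looked up after Racgap1 was seen. Racgap1 lost its call without vcS5 replicate 1 (adjusted p = 0.0688 by limma) and without vcS5 replicate 2 (0.0777), and kept it without either wild-type library.

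Kifc1, a spindle motor that moves toward microtubule minus ends, rose 2.00-fold, from 4.2 and 4.19 FPKM in wild type to 9.22 and 7.58 FPKM in vcS5 (adjusted p = 0.0424 by limma). Ncapd3, a subunit of condensin II, rose from 15.6 and 13.7 FPKM to 24.4 and 25.6 FPKM, with a log2 change of 0.73 (adjusted p = 0.0403 by limma). Among kinetochore and spindle checkpoint genes 0 of 28 passed, and the largest values were -0.51 for Mad1l1 and -0.47 for Cenpa. Among 22 kinases and regulators 0 passed, and the largest values were -0.63 for Cdk2, the partner of cyclin E (adjusted p = 0.0775 by limma), and 0.57 for Pbk. In the authors' deposited table Cdk2 had a q-value of 0.0124.

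Replication lists outside the members gave a median of 0.18 for polymerases, clamp loader and fork genes and 0.26 for nucleotide supply. The fork list ran from -0.67 to 0.69, with 7 of 27 rows negative. By limma, 6 of its rows had an unadjusted p under 0.05 (22.2%, against 25.3% of all rows), 3 higher and 3 lower. The nucleotide list ran from -0.45 to 1.12, with 3 of 12 rows negative. Rpa2, a subunit of the single-strand binding protein, rose from 21.5 and 23.1 FPKM in wild type to 34.6 and 39.0 FPKM in vcS5 (log2 change 0.69, adjusted p = 0.047 by limma). In the authors' deposited table its q-value was 0.0714. Dctd, the deaminase that makes the substrate of thymidylate synthase, rose from 3.82 and 4.0 FPKM to 7.91 and 11.7 FPKM (log2 change 1.12, adjusted p = 0.0417 by limma). Of 14 origin licensing rows 0 passed, with Cdc7 at 0.44 and Topbp1 at 0.30. Of 13 checkpoint and fork repair genes 0 passed, with Rad54l at 0.64 and Chek1 at 0.38. Rb1, the pocket protein that restrains E2F, had a row with 52.4 and 62.5 FPKM in the wild-type libraries and 25.2 and 33.3 FPKM in the vcS5 libraries that fell (log2 change -0.96, adjusted p = 0.0461 by limma). Its other row, with 33.6 and 29.9 FPKM against 32.2 and 34.3 FPKM, had 0.07. The authors' deposited table gave the former row a q-value of 0.382. The calls of Kifc1, Ncapd3, Rpa2, Dctd and Rb1 were lost with each library left out in turn, with adjusted p-values by limma from 0.0846 to 0.218. Without the variance trend Ncapd3 (0.0548), Rpa2 (0.0626) and Rb1 (0.058) also lost theirs.

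**Figure D4:**
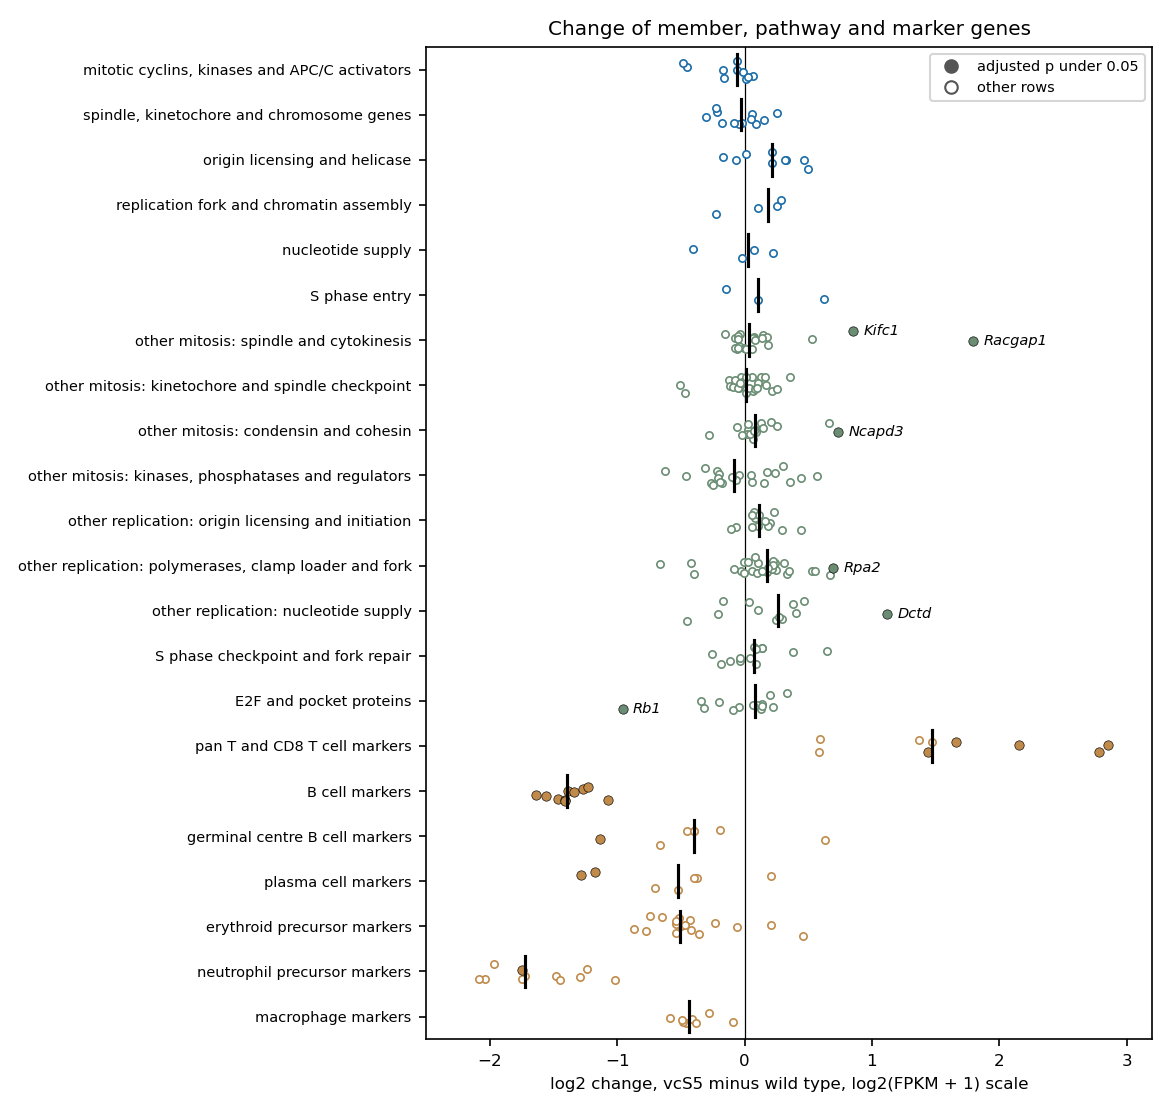
Log2 change of vcS5 over wild type on the log2(FPKM + 1) scale for each row of the members, the other mitosis and replication lists and the marker lists, with 1 point per row, called rows filled and the list median as a bar. Members gather around 0, with medians of -0.05 for mitosis and 0.16 for replication, while T cell markers lie above and B cell markers below.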

How the data were processed

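RNA was extracted with Trizol from frozen splenocytes and made into TruSeq v2 libraries, which do not mark strand, per the labels' protocols. The authors deposited FPKM per library and, per the file headers, their own log2 fold change, p-value and q-value. Bowtie2 2.1.0, TopHat2 2.0.9, Cufflinks, Cuffdiff 2.1.1 and build mm10 are named in the submitters' processing notes. How the table was filtered is not stated there, and no row had a mean FPKM under 1. FPKM keeps no read number, so absolute depth is unknown and no counting interval is given. A rough guide to relative depth was the most common rounded ratio of FPKM in wild-type replicate 1 to FPKM in another library. It was 0.847 for wild-type replicate 2, 0.901 for vcS5 replicate 1 and 0.831 for vcS5 replicate 2. Only 110, 82 and 47 rows held these ratios, so they are weak estimates. The 10 most abundant rows took 37.6% to 51.5% of the summed FPKM, and median FPKM was 12.2 to 12.6.

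All 14226 rows and 4 libraries were compared with limma 3.58.1 in R 4.3.3 on log2(FPKM + 1), with a variance trend, no covariates and a planned filter at a mean FPKM of 1, which removed 0 rows. Intervals are limma's moderated 95% intervals, with 2 residual and 3.17 prior degrees of freedom. The steps were tested on simulated data, drawn from the fitted spread with independent rows. Such data lack shifts shared by many genes between libraries, so they do not test the intervals under those shifts. Members were matched by symbol, and 42 of 42 symbols matched the GENCODE name of their Ensembl identifier. For 11 members another row shares the locus. Members, gene lists and marker lists were chosen with earlier results of these data known, and lists were described by counts without a test. Library values are given for the 2 most abundant members of each role, those with an unadjusted p under 0.05, and those with the largest and smallest changes or the largest replicate spread. Other lists give called rows, or else the largest values. Mcm4, Gins1, Birc5 and the rows beside the Mcm7 and Tk1 loci were added after their values were seen. Alternatives were another pseudocount, another filter, quantile or median scaling, no variance trend, a replicate block and leaving out each library.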

Additional observations from a re-analysis of the deposited data

How the results depend on the processing

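No member passed limma's test under any of the alternatives run (pseudocount 0.1, filter at a mean FPKM of 5, no filter, quantile or median scaling, no variance trend, replicate block, each library left out). The number of all rows called was 1241 and ranged from 71 (without vcS5 replicate 2) to 245 (without wild type replicate 2) with 1 library left out, where the lone sample is assumed to vary like the other group, and members with intervals inside 2-fold then numbered 28 to 35. Other pathway rows called went from 6 to 3 without the variance trend and to 0 to 1 with a library left out. With the replicate block, members inside 2-fold numbered 37 and all rows called 1028, and Kifc1 (adjusted p = 0.0612 by limma), Ncapd3 (0.0567) and Dctd (0.057) lost their calls. Deviations of same-numbered libraries correlated at r = 0.176 over all rows and -0.153 over the members. With 2 libraries a group, these correlations cannot show whether same-numbered libraries share more than a number. The mitosis median ranged from -0.14 without wild type replicate 2 to 0.06 without replicate 1, and the replication median from 0.04 to 0.24. Of 837 values of single rows, 64 lost their call, 2 gained one (S100a9 and Ngp without wild type replicate 2), and 39 differed in sign with neither past the threshold. The cause was not tested. Running no filter repeated the main fit, since the planned filter removed 0 rows, and its values are among the 837. Depth is unknown, and 2 libraries a group limit the precision.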
